A study of Mus musculus with 9 samples.

Results

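The proteasome genes described here are the mouse genes for the subunits, activators, inhibitor and assembly chaperones of the proteasome, chosen by symbol (Psma, Psmb, Psmc, Psmd, Psme, Psmf or Psmg followed by a number) among the probe sets to which the array's annotation gives a single gene. The rule found 47 genes on 100 probe sets, of 18194 genes with a probe set of their own. It used no measured value. A filter on dim probe sets left 79 probe sets for 44 of the 47 genes, of 13616 genes in all, and the genes lost to it were Psmb8, Psmb9 and Psmb11. A gene's values are those of its brightest probe set above the filter, where one whose suffix marks matches to other transcripts was taken only if no other was left. For 21 of the 44 genes there were further kept probe sets.

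The study asked how a diet without vitamin A changes the transcripts of mouse spermatogonia, the mitotic germ cells of the testis. Adult Balb/C mice received a normal control diet, or a vitamin A deficient (VAD) diet for 18 weeks or for 25 weeks, with 3 arrays in each of the 3 groups. Testes of 2 mice were pooled for a preparation, the dissociated germ cells were cultured overnight and sorted by sedimentation to a stated purity above 90%, and a 2-cycle amplification from 100 ng of RNA prepared the target for an Affymetrix expression array. Neither the age of the mice, the time the control mice spent on their diet, nor whether the 3 arrays of a group came from separate preparations is given, so p-values measure the spread between these arrays, which may be technical.

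The proteasome is the main protease of the cytosol and nucleus. Its core particle is a barrel in which rings of beta subunits, some of them proteolytic, lie between rings of alpha subunits that gate the entrance. A regulatory particle caps the barrel. Its ATPases unfold ubiquitin-tagged proteins, and its non-ATPase subunits bind and remove ubiquitin. Other activators, the Psme proteins, open the gate without ubiquitin. In the testis, germ cells in meiosis make their own alpha subunit, Psma8, in place of Psma7, and Psme4 (PA200) has been tied to histone removal in spermatids. Inducible beta subunits (Psmb8, Psmb9, Psmb10) replace the proteolytic ones in immune cells and after interferon.

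The arrays differed in brightness, and 2 of them stood apart. The trimmed mean of the deposited signal was at most 23.3 on control replicate 3 and VAD 25-week replicate 3 and 55.6 to 186 on the other 7. After quantile normalization these 2 arrays correlated at 0.889 with each other and at 0.776 to 0.809 with the others, which correlated at 0.935 to 0.981 among themselves. Every comparison was fitted with this dim pair as a block, and results are also given with group as the sole term and without the pair. The block was chosen with earlier results of these data known, in which the fit with group as the sole term called nothing. The offset of the dim pair differed by gene: 29 of the 44 proteasome genes read lower on the dim pair, from Psmd6 at -2.56 to Psmd3 at 2.98 on the log2 scale. All levels below are log2 values of the deposited signal plus 3.259, quantile normalized. A change is a difference of such values, which understates changes of dim genes. Unless stated otherwise, it is the estimate from the fit with the block. Such an estimate can depart from the difference of the group means, as for Psmg1 at 18 weeks (0.85 against 1.06). Levels of different genes come from different probes and are not set against each other.

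Markers of the labelled cell type were present in part. Of 11 markers of undifferentiated spermatogonia on the array, 6 were measured and Ret, Lin28a, Pou5f1, Sall4 and Neurog3 were below the filter, while all 8 markers of differentiating spermatogonia, all 12 of spermatocytes and all 13 of spermatids were measured. The summed signal of the spermatocyte markers was 21115 to 28123 in the control arrays, 29065 to 29268 at 18 weeks and 21198 to 27288 at 25 weeks. Markers of Sertoli cells, the somatic cells that nurse germ cells, summed to 276.4 to 378.2 in controls, 885.2 to 2714 at 18 weeks and 1092 to 1968 at 25 weeks, and 7 of 15 measured were called higher at 18 weeks and 10 of 15 at 25 weeks. Spermatid markers summed to 7323 to 18809 in controls, 9269 to 14885 at 18 weeks and 4820 to 17440 at 25 weeks, with none of 13 called at 18 weeks and 5 called lower and none higher at 25 weeks (median change -0.57), among them Crem and Acr. At 25 weeks 1 of 4 Leydig, 1 of 4 peritubular myoid and 1 of 6 undifferentiated spermatogonial markers were called higher, 2 of 8 differentiating spermatogonial markers higher and 1 lower, and none of 4 endothelial markers. In such bulk samples a smaller number of cells of a type and less RNA per cell cannot be told apart, and the part of these cell types in the results below was not tested.

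At 18 weeks of VAD, 1 of the 44 proteasome genes was called, where 1.51% of all genes were called, 1.36% higher and 0.147% lower (limma, Benjamini-Hochberg adjusted p under 0.05 over all 27022 kept probe sets). This was Psmg1, a chaperone that starts the alpha ring. Its level was 7.44, 7.40 and 6.45 in the control arrays, 8.20, 8.10 and 8.15 at 18 weeks and 7.81, 7.93 and 7.61 at 25 weeks. All VAD arrays lay above all control arrays. The rise at 18 weeks was 0.85 ± 0.18 (SE, n = 3 arrays a group; 1.80-fold; adjusted p = 0.0401 by limma). It did not pass with group as the sole term (limma adjusted p = 0.498). It passed without the dim pair (adjusted p = 0.0154, where 4 proteasome genes and 4.29% of all genes were called), and no call was left when control replicate 1 or 2, or any VAD array other than the dim one, was left out.

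The changes of the other 43 genes at 18 weeks, none of them called, ran from -0.43 (Psmd10) to 0.58 (Psmd14), and the median over all 44 was 0.18, against -0.008 over all kept probe sets. With group as the sole term these medians were 0.32 and 0.05. In all, 35 of the 44 values were above zero and 9 below. The 18-week arrays did not overlap the control arrays for 12 genes, all of them higher, where 11.8% of all genes were higher and 8.17% lower in this way. With group as the sole term no probe set on the array was called (0.00% by limma). At an unadjusted p under 0.05 there were then 1955 of the 27022 probe sets (7.23%), 7.38% of all genes and 5 of the 44 proteasome genes.

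At 25 weeks of VAD, 13 of the 44 proteasome genes were called, 9 higher and 4 lower, where 17.0% of all genes were called, 9.05% higher and 7.95% lower. The 9 that rose were the alpha subunits Psma2, Psma3, Psma5 and Psma8, the beta subunit Psmb3, the regulatory subunits Psmd6 and Psmd14, and the chaperones Psmg1 and Psmg2. The 4 that fell were the proteolytic beta subunit Psmb6, the ATPase Psmc3, the assembly factor Psmd9 and the inhibitor Psmf1. Over all 44 genes the median change was 0.11, against -0.009 over all kept probe sets, with 27 values above zero and 17 below, and the range was -0.85 to 0.78. The 25-week arrays did not overlap the controls for 9 genes that were higher and 3 that were lower, where 9.58% and 8.09% of all genes behaved so.

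**Figure D1:**
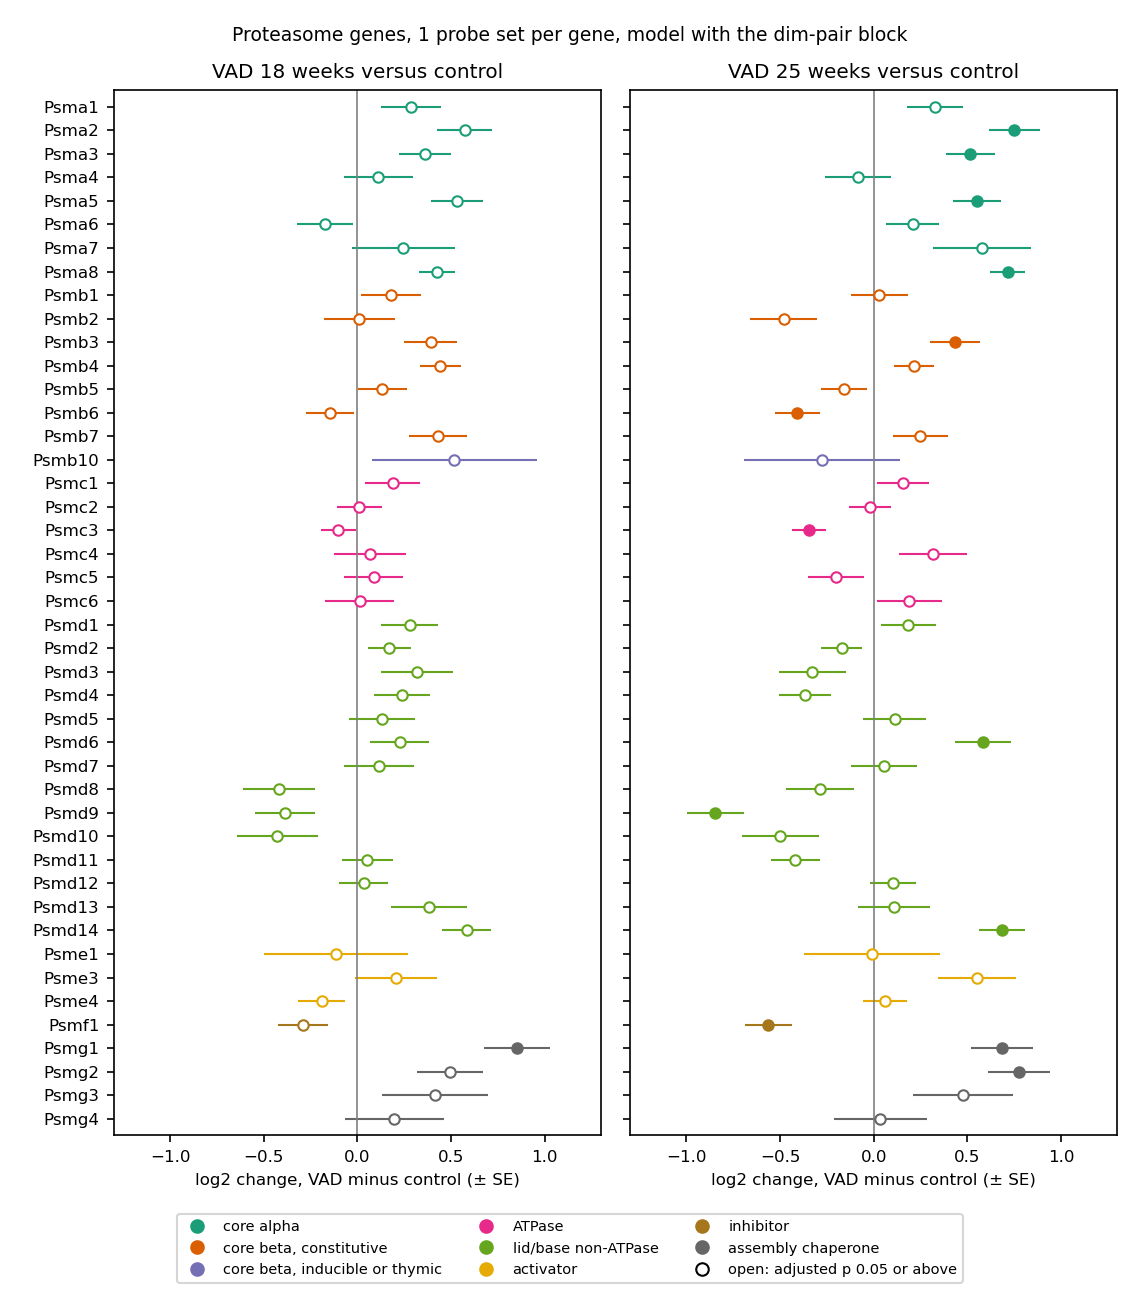
Change in log2 level of the 44 measured proteasome genes against control at 18 and at 25 weeks of vitamin A deficiency, ordered by subunit class, with SE bars and filled points for genes called at an adjusted p under 0.05. At 25 weeks 4 of 8 core alpha subunits and 2 of 4 assembly chaperones were called higher, and the 4 genes called lower lie in 4 different classes.

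The calls at 25 weeks rested on the block. With group as the sole term none of the 44 genes was called and none on the whole array, with 3211 of 27022 kept probe sets (11.9%), 13.1% of all genes and 6 of the 44 at an unadjusted p under 0.05. The smallest adjusted p among the proteasome genes was then 0.185 by limma. Without the dim pair 12 proteasome genes were called, 10 of them among the 13, where 17.7% of all genes were called. The 13 changes had the same sign between the 2 dim arrays alone as between the other arrays. This is no separate support, as the fit with the block combines these 2 differences and favours genes in which they agree. Leaving out control replicate 1 left 7 calls (8.75% of all genes), and leaving out VAD 25-week replicate 1 or replicate 2 left 6 each (8.59% and 7.81% of all genes). Both of those VAD arrays also carried a mean signal of 270 and 338 on poly-A control probe sets, against 4.97 to 10.6 on the other 7 arrays, and the part of this in the results was not tested.

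The 5′ flanks of some of these genes are shown because the genes that moved did not move together. RefSeq promoter sequences (GRCm38.p6, 250 bases before to 50 after the start) were at hand for 39 of the 47 genes, and 4 motifs, none of which contains another, were looked for in these windows on both strands after the results were known: TGACNNNGC (bound by Nfe2l1 and related factors), CCGGAAG (ETS factors), GCATGCGC (NRF1) and CCAAT (NF-Y). The 250 bases before the start are printed, with matches there in capitals, in the reading direction of the gene. The first 2 genes shown rose at 25 weeks and the last 2 fell.
Psma2 promoter, chr13:14612992-14613241, plus strand: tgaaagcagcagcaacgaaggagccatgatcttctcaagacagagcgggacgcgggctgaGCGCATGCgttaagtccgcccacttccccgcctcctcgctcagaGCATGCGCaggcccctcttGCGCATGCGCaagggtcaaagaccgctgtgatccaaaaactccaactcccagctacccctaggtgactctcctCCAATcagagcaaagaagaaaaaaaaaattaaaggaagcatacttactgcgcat
Psmg1 promoter, chr16:95990961-95991210, minus strand: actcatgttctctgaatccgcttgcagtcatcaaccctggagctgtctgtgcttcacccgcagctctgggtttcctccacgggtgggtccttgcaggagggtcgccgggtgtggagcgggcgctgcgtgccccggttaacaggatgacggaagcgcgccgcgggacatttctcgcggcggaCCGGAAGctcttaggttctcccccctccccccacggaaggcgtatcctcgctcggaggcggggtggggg
Psmb6 promoter, chr11:70525107-70525356, plus strand: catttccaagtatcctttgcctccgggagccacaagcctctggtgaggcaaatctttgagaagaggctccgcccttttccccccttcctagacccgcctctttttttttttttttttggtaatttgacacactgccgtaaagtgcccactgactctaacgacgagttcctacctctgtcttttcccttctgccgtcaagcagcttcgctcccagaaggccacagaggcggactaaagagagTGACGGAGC
Psmd9 promoter, chr5:123227940-123228189, plus strand: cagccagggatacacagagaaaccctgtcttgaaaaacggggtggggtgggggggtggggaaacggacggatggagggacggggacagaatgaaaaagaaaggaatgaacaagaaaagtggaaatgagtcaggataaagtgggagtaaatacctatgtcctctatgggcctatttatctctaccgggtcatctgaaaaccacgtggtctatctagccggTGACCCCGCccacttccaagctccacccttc
CCGGAAG was present for 14 of the 39 genes (35.9%), against 8.86% of all 32851 promoters in the table. A gene counted once if any of its entries held the motif, while the share of all promoters counts every entry. These percentages are therefore not of like units. TGACNNNGC was present in 6 (15.4%, against 12.4%), GCATGCGC in 3 (7.69%, against 2.71%) and CCAAT in 14 (35.9%, against 37.4%). Of the 7 genes called higher at 25 weeks that had an entry, none held TGACNNNGC, 2 held CCGGAAG, 2 held GCATGCGC and 4 held CCAAT. Of the 3 called lower, Psmb6 and Psmd9 held TGACNNNGC and none held the other 3. A match says only that these letters occur in the window.

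The core alpha subunits, which form the outer rings and the gate, held 4 of the 13 calls. Their median change over 8 genes was 0.32 at 18 weeks and 0.53 at 25 weeks. Psma8, the alpha subunit of meiotic germ cells, read 11.28, 11.27 and 10.75 in the control arrays, 11.82, 11.62 and 11.72 at 18 weeks and 12.04, 12.02 and 11.39 at 25 weeks. Every VAD array lay above every control array, and within the dim pair the VAD array was also the higher. Psma8 rose by 0.71 ± 0.09 at 25 weeks (1.64-fold; limma adjusted p = 0.00111, and 0.265 with group as the sole term). At 18 weeks its change was 0.42 ± 0.10 (adjusted p = 0.0556). Spermatocyte markers, which mark the cells known to make Psma8, had a median change of 0.03 at 18 weeks with 3 of 12 called higher, and of 0.19 at 25 weeks with 4 of 12 called higher and 3 lower. Those called higher at 25 weeks were Sycp2 (1.09), Piwil1 (1.08), Sycp3 (0.94) and Tesmin (0.45). Those called lower were Ccna1 (-0.89), Spag6 (-0.64) and Hspa2 (-0.64). Psma7, the subunit that Psma8 replaces, read 5.53, 5.51 and 4.45 in control, 5.58, 5.98 and 5.28 at 18 weeks and 5.88, 5.71 and 5.64 at 25 weeks. Its control and 18-week arrays overlapped, its 25-week arrays lay above the controls, and its change at 25 weeks of 0.58 ± 0.26 was not called (adjusted p = 0.159). The other kept probe set of Psma7 had the opposite sign at 25 weeks, with a change of -0.16 ± 0.29 (limma adjusted p = 0.755). On that probe set the control and 25-week arrays overlapped.

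Psma2 was flat across the control arrays, the dim one included, at 7.84, 7.91 and 7.84, against 8.37, 8.67 and 8.34 at 18 weeks and 8.71, 8.58 and 8.54 at 25 weeks. The groups did not overlap the controls. Its rise at 25 weeks was 0.75 ± 0.14 (1.68-fold; limma adjusted p = 0.00549), and its value at 18 weeks was 0.57 ± 0.15 (adjusted p = 0.0778). Psma5 read 9.45, 9.43 and 8.52 in control, 9.90, 9.86 and 10.04 at 18 weeks and 10.11, 9.73 and 9.22 at 25 weeks, and rose by 0.55 ± 0.13 at 25 weeks (adjusted p = 0.0158). The dim VAD array lay below the 2 brighter control arrays, and with group as the sole term the gene was not called (adjusted p = 0.537). Psma3 read 10.49, 10.52 and 11.22 in control, 10.75, 10.75 and 11.22 at 18 weeks and 11.14, 11.07 and 11.57 at 25 weeks, and rose by 0.52 ± 0.13 (adjusted p = 0.0236). Here the dim arrays were the high ones. Psma4 read 8.52, 8.49 and 7.68 in control, 8.61, 8.52 and 8.34 at 18 weeks and 8.004, 8.34 and 8.09 at 25 weeks, with a change of -0.08 ± 0.17 at 25 weeks that was not called. Psma6 read 10.43, 10.44 and 10.07 in control, 10.11, 10.46 and 10.49 at 18 weeks and 10.81, 10.85 and 9.91 at 25 weeks, with the dim VAD array below all controls, and was not called (0.21 ± 0.14). Psma1 was not called either (0.33 ± 0.15), but passed without the dim pair (limma adjusted p = 0.0486).

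**Figure D2:**
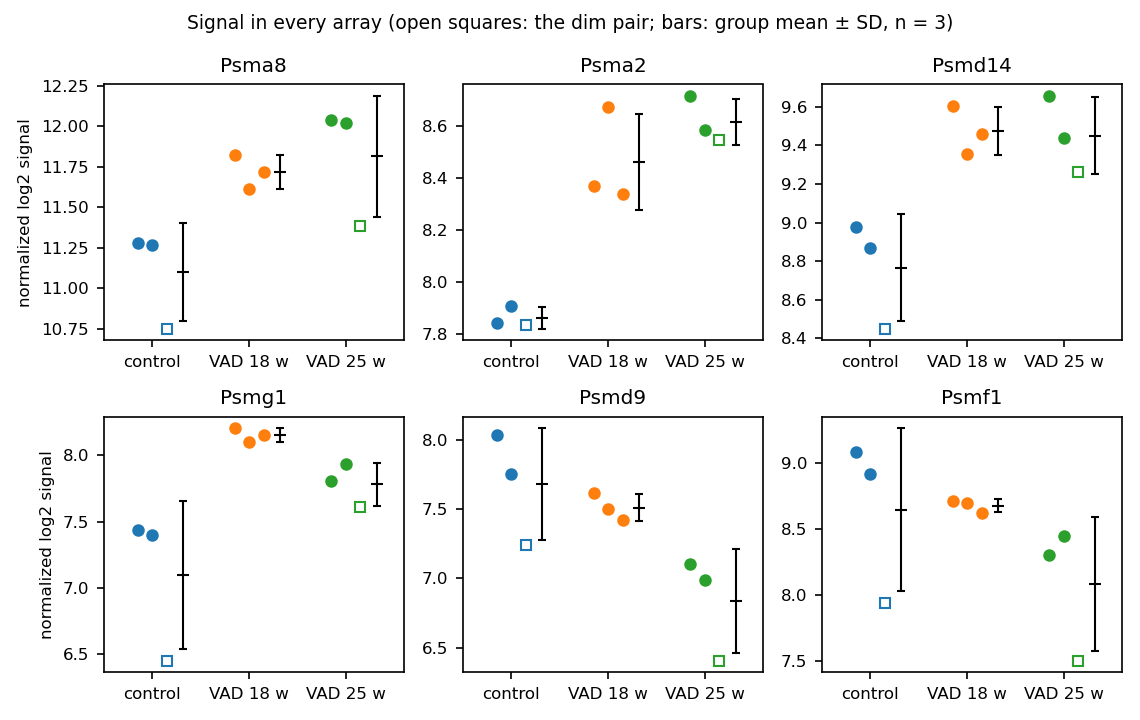
Normalized log2 level of 6 proteasome genes on each of the 9 arrays by group, with open squares for the dim pair and, beside each group, its mean ± SD (n = 3). Psma2, Psma8 and Psmd14 lie higher in VAD arrays than in control arrays, and the offset of the dim arrays differs from gene to gene.

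The 7 constitutive beta subunits, which include the proteolytic ones, had a median change of 0.18 at 18 weeks and 0.03 at 25 weeks, with 1 call in each direction at 25 weeks. Psmb6, which carries the caspase-like activity, read 10.00, 9.84 and 8.91 in control, 9.80, 9.94 and 9.69 at 18 weeks and 9.52, 9.65 and 8.36 at 25 weeks, and fell by 0.41 at 25 weeks (SE 0.12; limma adjusted p = 0.0421). Psmb3, a subunit without proteolytic activity, read 8.29, 8.31 and 6.83 in control, 8.51, 8.80 and 8.71 at 18 weeks and 8.65, 8.74 and 7.34 at 25 weeks, and rose by 0.43 ± 0.13 (limma adjusted p = 0.0493). In both genes the dim arrays lay far below the rest, and neither passed without them (adjusted p = 0.113 for Psmb6 and 0.0893 for Psmb3). The other 2 proteolytic subunits were not called. Psmb5, with the chymotrypsin-like activity, read 9.73, 9.50 and 10.19 in control, 9.73, 9.72 and 9.93 at 18 weeks and 9.61, 9.50 and 9.84 at 25 weeks, a change of -0.16 ± 0.12. Psmb7, with the trypsin-like activity, read 8.68, 8.71 and 8.84 in control, 8.99, 8.90 and 9.36 at 18 weeks and 8.76, 8.96 and 9.25 at 25 weeks, a change of 0.25 ± 0.15. The control and 25-week ranges of both overlapped. Values of the remaining beta subunits at 25 weeks ran from -0.48 ± 0.18 (Psmb2, adjusted p = 0.0927) to 0.21 ± 0.11 (Psmb4).

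The inducible beta subunits were dim on these arrays. The probe sets of Psmb8, Psmb9 and the thymic subunit Psmb11 were below the filter in these samples. Deposited signals of Psmb9 were 1.3, 0.896 and 13.4 in control, 6.95, 9.09 and 0.893 at 18 weeks and 14.6, 11.9 and 17.5 at 25 weeks. Those of Psmb8 were 0.317, 3.03 and 4.98 in control, 1.73, 4.92 and 1.2 at 18 weeks and 3.74, 0.164 and 4.18 at 25 weeks on the brighter of its 2 probe sets, and at most 3.41 on any array on the other. The VAD arrays overlapped the controls at both times for Psmb9 and for that brighter probe set. These are signals before normalization, from arrays that differ in brightness, and no change was computed from them. On the dimmer Psmb8 probe set the normalized levels were 2.46, 3.00 and 2.81 in control. They were 2.14, 1.88 and 2.03 at 18 weeks and 2.14, 1.94 and 2.05 at 25 weeks. There every VAD array lay below every control array, at levels under the filter. Psmb10 passed the filter and read 3.95, 3.04 and 5.32 in control, 4.31, 4.38 and 4.32 at 18 weeks and 4.06, 3.67 and 3.76 at 25 weeks. Its control arrays spanned all the VAD arrays, and its changes of 0.52 ± 0.44 and -0.28 ± 0.42 were not called. Among genes that accompany these subunits in antigen presentation, Tap1 and Tap2 were also below the filter, and of the 9 measured none was called at either time or between the times. At 25 weeks the 3 with the smallest p were B2m (1.11 ± 0.36; limma adjusted p = 0.0598), H2-K1 (-0.44 ± 0.22) and Nlrc5 (0.68 ± 0.35), and at 18 weeks they were Nlrc5 (0.52), Ciita (-0.49) and Irf1 (0.34). Leukocyte markers, 5 of 10 of which were called higher at 25 weeks and none at 18 weeks, summed to 180.9 to 310 in control, 184.7 to 264.5 at 18 weeks and 305.2 to 452.1 at 25 weeks, and Ptprc was below the filter. Their part in these values was not tested.

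Among the 6 ATPases of the regulatory particle 1 was called. Psmc3 read 11.60, 11.45 and 11.33 in control, 11.43, 11.39 and 11.44 at 18 weeks and 11.14, 11.20 and 11.00 at 25 weeks, and fell by 0.35 at 25 weeks (SE 0.09; limma adjusted p = 0.0246). All its 25-week arrays lay below all control arrays. The other 5 ranged from -0.20 (Psmc5) to 0.32 (Psmc4) at 25 weeks, and all 6 from -0.10 (Psmc3) to 0.19 (Psmc1) at 18 weeks.

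The 14 non-ATPase subunits and factors of the regulatory particle had medians of 0.15 at 18 weeks and -0.06 at 25 weeks, with 2 called higher and 1 lower at 25 weeks. Psmd14, the enzyme that strips ubiquitin from the substrate, read 8.97, 8.87 and 8.45 in control, 9.61, 9.36 and 9.46 at 18 weeks and 9.66, 9.44 and 9.26 at 25 weeks. All VAD arrays lay above all control arrays. Its rise at 25 weeks was 0.69 ± 0.12 (1.61-fold; limma adjusted p = 0.00532), and its value at 18 weeks was 0.58 ± 0.13 (adjusted p = 0.0541). Psmd6, a lid subunit, read 9.82, 10.12 and 7.64 in control, 10.30, 10.04 and 10.47 at 18 weeks and 10.76, 10.66 and 7.92 at 25 weeks, and rose by 0.59 ± 0.15 (adjusted p = 0.0228, and 0.857 with group as the sole term). The dim arrays lay far below the rest in this gene.

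Psmd9, which helps to assemble the ATPase ring, had the lowest change of the 44. It read 8.04, 7.76 and 7.24 in control, 7.61, 7.50 and 7.42 at 18 weeks and 7.11, 6.99 and 6.40 at 25 weeks, and every 25-week array lay below every control array. It fell by 0.85 at 25 weeks (SE 0.15; limma adjusted p = 0.005), and its value at 18 weeks was -0.38 ± 0.16 (adjusted p = 0.259). Psmd10, another assembly chaperone of this ring, read 6.22, 6.17 and 5.20 in control, 5.59, 5.66 and 6.06 at 18 weeks and 5.72, 5.69 and 4.69 at 25 weeks, and was not called at 18 weeks (-0.43 ± 0.22) or at 25 weeks (-0.50 ± 0.21). Psmd8, a lid subunit, read 10.55, 10.45 and 8.44 in control, 10.32, 10.33 and 9.56 at 18 weeks and 10.12, 10.26 and 8.20 at 25 weeks, with a change of -0.42 ± 0.19 at 18 weeks that was not called. In both genes VAD arrays overlapped the range of the controls. Psmd4, a ubiquitin receptor, read 9.28, 8.95 and 8.56 in control, 9.39, 9.26 and 9.22 at 18 weeks and 8.53, 8.72 and 8.43 at 25 weeks. Its 25-week arrays lay below all 18-week arrays, and its change against control was -0.37 ± 0.14 (adjusted p = 0.103). Psmd11 came close to the threshold at 25 weeks (-0.42 ± 0.13; adjusted p = 0.0513).

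The activators had no calls at either time. Psme3, the nuclear activator, read 7.18, 7.15 and 7.36 in control, 7.08, 7.57 and 7.81 at 18 weeks and 7.93, 7.96 and 7.46 at 25 weeks, a change of 0.55 ± 0.21 at 25 weeks that passed without the dim pair (limma adjusted p = 0.0966 with it and 0.0338 without). Psme4 read 10.57, 10.67 and 10.89 in control, 10.45, 10.63 and 10.25 at 18 weeks and 10.80, 10.61 and 10.89 at 25 weeks, with changes of -0.19 ± 0.12 and 0.06 ± 0.12. Psme1, an interferon-inducible activator, read 3.70, 4.24 and 3.02 in control, 3.76, 4.51 and 3.61 at 18 weeks and 4.11, 4.23 and 2.58 at 25 weeks. The 3 groups overlapped in Psme1, and its changes were -0.11 ± 0.39 and -0.01 ± 0.36. Its partner Psme2 was measured on a probe set that also matches Psme2b, which the rule leaves out, and that probe set was not called (0.57 ± 0.45 at 18 weeks and 0.68 ± 0.43 at 25 weeks).

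Psmf1, a protein that inhibits the core particle in the test tube, read 9.08, 8.91 and 7.94 in control, 8.71, 8.69 and 8.62 at 18 weeks and 8.30, 8.45 and 7.50 at 25 weeks. Within the dim pair and outside it the 25-week arrays were the lower. It fell by 0.56 at 25 weeks (SE 0.13; limma adjusted p = 0.0139) and was not called at 18 weeks (-0.29 ± 0.13). This direction depended on the probe set. Another probe set of Psmf1 read 2.38, 2.64 and 4.48 in control, 4.26, 3.92 and 4.07 at 18 weeks and 4.13, 3.79 and 5.25 at 25 weeks, and was called higher at 25 weeks (1.22 ± 0.32; adjusted p = 0.0245). The remaining 2 had positive values that were not called. They were 0.38 ± 0.19 (limma adjusted p = 0.214, and 0.0202 when the dim arrays were left out) and 0.14 ± 0.29. The suffix of the former marks matches to other transcripts. Thus 3 of the 4 probe sets had a sign opposite to the one that stands for the gene. All 3 were dimmer, with mean levels over all arrays of 3.88, 7.37 and 5.50 in the order given, against 8.47. In the fit with the block, Psmf1 was the only one of the 44 genes with probe sets called in opposite directions.

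The 4 assembly chaperones of the core had class medians of 0.45 at 18 weeks and 0.58 at 25 weeks. Psmg1 rose at both times, by 0.69 ± 0.17 at 25 weeks (limma adjusted p = 0.0187), but its change was 1.16 within the dim pair and 0.45 outside it. Without the pair the adjusted p was 0.0541. Psmg2, which pairs with Psmg1, had the highest change of the 44 at 25 weeks. It read 7.29, 7.44 and 7.16 in control, 7.64, 7.71 and 7.93 at 18 weeks and 7.93, 7.94 and 8.34 at 25 weeks, with no overlap between control and VAD arrays. The rise was 0.78 ± 0.17 (1.71-fold; adjusted p = 0.0109), and its value at 18 weeks was 0.49 ± 0.18 (adjusted p = 0.191). Psmg3 (0.48 ± 0.27) and Psmg4 (0.04) were not called at 25 weeks.

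Over the 79 kept probe sets, 20 were called at 25 weeks, 13 higher and 7 lower, where 14.8% of all kept probe sets were called, 8.51% higher and 6.29% lower. Some genes gave a call only on a probe set that did not represent them. In Psmc6 the representative change was 0.19 and that of a cross-matching probe set 1.31 ± 0.30. In Psmb4 the values were 0.21 and 0.58 ± 0.13, the latter also from a cross-matching probe set. Psmd4 was called lower on its dimmer probe set (-0.68 ± 0.19; limma adjusted p = 0.0362). Psmd11 was called lower on 2 dimmer probe sets (-0.72 and -1.80), while a further one read 0.71 and was not called (adjusted p = 0.055). In Psma5 both probe sets rose (0.55 and 0.57). The other probe set of Psmd6 read 0.27, those of Psmg2 0.45 and 0.04 and those of Psmd9 0.11 and -0.59, none of them called. Levels on the other probe set of Psma3 were 4.38, 4.51 and 2.99 in control and 4.22, 4.48 and 3.90 at 25 weeks. Those on the other probe set of Psmb3 were 6.68, 6.60 and 3.95 in control and 6.52, 6.81 and 5.15 at 25 weeks. On both, the control and 25-week arrays overlapped.

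**Figure D3:**
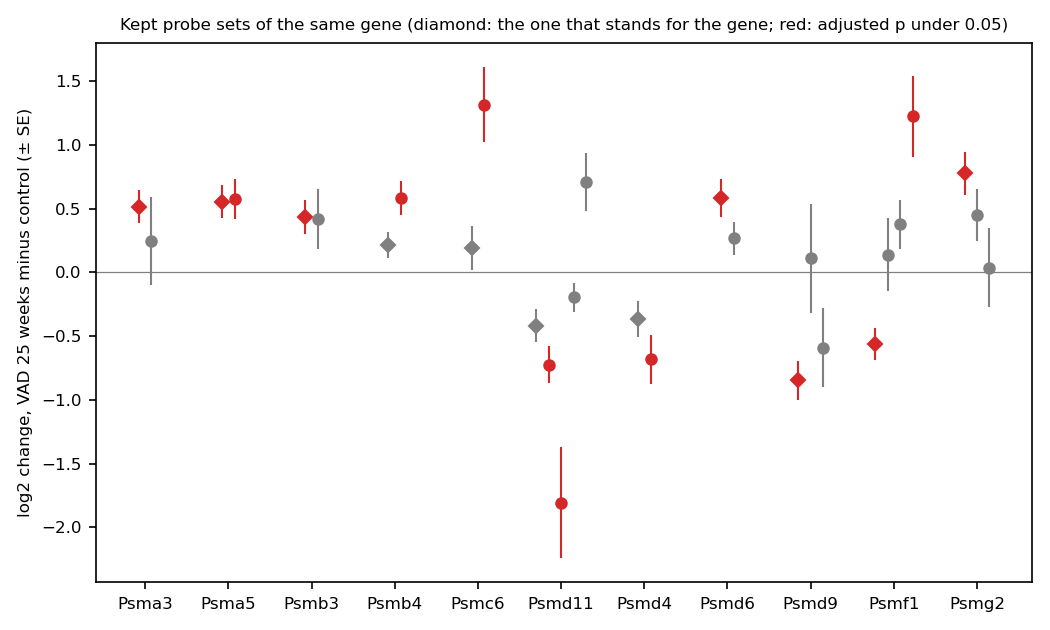
Change in log2 level at 25 weeks against control on every kept probe set of the 11 proteasome genes that have more than 1 and a call on any of them, with SE bars, red where called, and a diamond for the probe set that stands for the gene. Psmf1 has red points on both sides of zero.

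The split of the calls into higher and lower moved with the scaling of the arrays. On the deposited signals without normalization the median over all kept probe sets at 25 weeks was itself 0.9252, and 26 proteasome genes were called, all of them higher, where 39.4% of all genes were called higher and 0.0294% lower. With median centring 8 proteasome genes were called higher and 1 lower, where 11.0% of all genes were called higher and 3.74% lower. Psmb6, Psmc3, Psmd9 and Psmf1 had values above zero on the deposited scale (0.51, 0.44, 0.19 and 0.42, none of them called), which lay below the shift of all probe sets by 0.41 to 0.73. Relative to that shift these 4 values were negative and those of the 9 genes that rose were positive, from 0.44 (Psma3) to 0.81 (Psmg2).

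**Figure D4:**
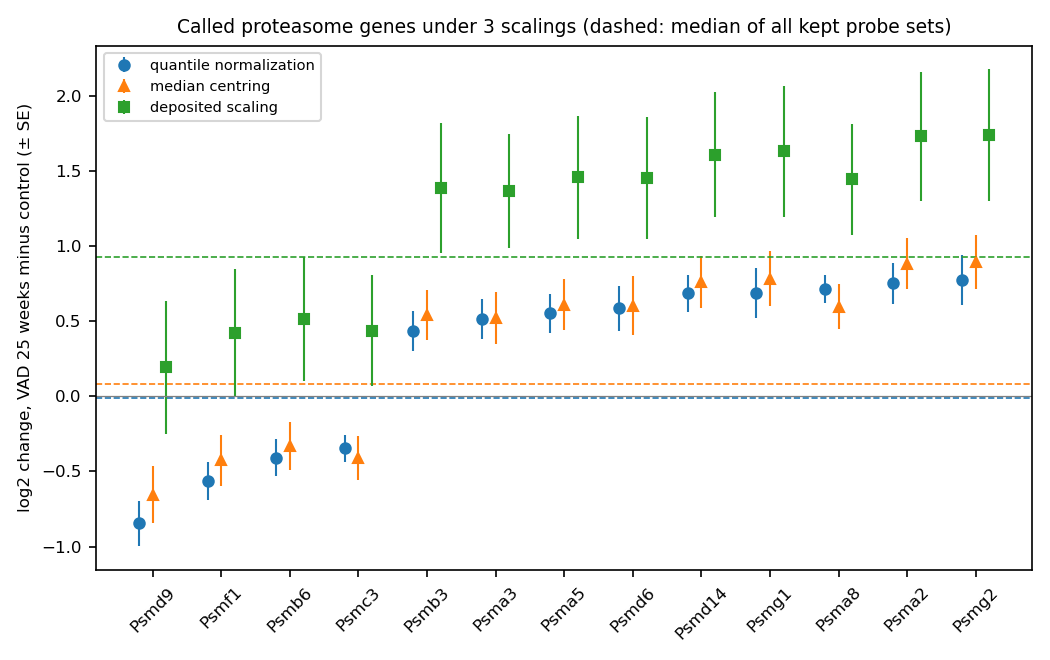
Change in log2 level at 25 weeks against control of the 13 called genes under 3 scalings of the arrays, with SE bars. Dashed lines mark the median of all kept probe sets under each scaling (0.9252 on the deposited scale), and the 4 genes that fell after quantile normalization lie below that line under all 3. Median centring moves all probe sets of an array alike. Its distances from the line therefore equal those on the deposited scale and are not a separate result.

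Between 25 and 18 weeks none of the 44 genes was called, nor any other probe set on the array (0.00% by limma); 3124 of 27022 kept probe sets (11.6%), 13.0% of all genes and 11 of the 44 had an unadjusted p under 0.05. With group as the sole term none was called either, and an unadjusted p under 0.05 was found for 1031 probe sets (3.82%), 4.15% of all genes and 2 of the 44. The 25-week arrays did not overlap the 18-week arrays for 1 gene that was higher and 11 that were lower, where 7.29% and 10.8% of all genes behaved so. The smallest adjusted p among the proteasome genes was 0.179, for Psmd4 (-0.60 ± 0.15). Without the dim pair Psmd4 was the 1 proteasome gene called (-0.66; adjusted p = 0.0445), where 1.86% of all genes were called. The lowest values were those of Psmb10 (-0.79 ± 0.44), Psmd3 (-0.64 ± 0.19) and Psmd4. Psmd3, a lid subunit, read 7.03, 6.81 and 9.65 in control, 7.29, 7.33 and 6.84 at 18 weeks and 6.44, 6.42 and 9.65 at 25 weeks, so that its dim arrays lay far above the rest. The highest values were 0.38 (Psma6), 0.36 (Psmd6) and 0.35 (Psme3). The 2 comparisons with control share the control arrays, and 1 gene, Psmg1, was called in both.

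Other genes of the ubiquitin-proteasome pathway were taken from a list of 30, of which 21 were on the array and all 21 passed the filter. None was called at 18 weeks, where 1.51% of all genes were called. At 25 weeks 3 were called higher and none lower, where 9.05% of all genes were called higher and 7.95% lower. The medians were 0.03 and 0.11. Zfand5, which binds the proteasome and ubiquitin, read 6.20, 6.10 and 6.63 in control, 6.65, 7.01 and 6.78 at 18 weeks and 6.96, 7.06 and 8.64 at 25 weeks, and rose by 1.24 ± 0.23 at 25 weeks (limma adjusted p = 0.0055). Uba6, a ubiquitin-activating enzyme, read 6.09, 6.07 and 7.25 in control, 6.76, 7.001 and 7.20 at 18 weeks and 7.50, 7.62 and 7.38 at 25 weeks, and rose by 1.03 ± 0.25 (adjusted p = 0.0188). Both had 25-week arrays above all control arrays. Ubqln2, a shuttle for ubiquitin-tagged proteins, rose by 1.49 ± 0.38 (adjusted p = 0.0222, and 0.0824 without the dim pair). The smallest p-values at 18 weeks were those of Zfand5 (0.85 ± 0.24), Vcp (0.57 ± 0.17) and Ubqln2 (1.08 ± 0.40), and between the times those of Vcp (-0.43), Akirin2 (0.35) and Ngly1 (0.40), none of them called. Nfe2l1, the factor that raises subunit genes when proteasome activity falls short, had values of 0.53 and 0.31 that were not called, and Pomp, which helps the core to mature, values of 0.19 and -0.17.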

How the data were processed

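Each of the 9 arrays carried 45101 probe-set rows. The deposited intensity values are signals computed by the authors with MAS5, per the submitters' processing notes; the sources used here give neither its version nor a scaling target. As the array medians differed, signals plus a pseudocount of 3.259 (their 25th percentile) were log2 transformed and quantile normalized, and the filter kept the 27022 probe sets whose mean reached the 40th percentile, the array's 64 control probe sets aside. Groups were compared with limma 3.58.1 in R 4.3.3 (lmFit with group and the dim pair as terms, eBayes with a variance trend; 5 residual degrees of freedom), with Benjamini-Hochberg adjustment over all kept probe sets. The steps were tested on data simulated from the fit with the block itself. Such a test cannot show whether the block is right for these arrays. The number of arrays limits the precision. The replicate numbers did not pair the arrays and were not used as a block in the main fit. Values on every array are given for called genes, for the 3 highest and 3 lowest changes per comparison and for a fixed list of subunits. From 2 lists of other genes, the 3 with the smallest p per comparison are named. Platform gene names were used as annotated. The member genes, gene lists and tests were chosen with earlier results of these data known. Alternatives were another scaling, pseudocount, filter, variance model, array weights, probe-set rule, terms of the fit and left-out arrays.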

Additional observations from a re-analysis of the deposited data

How the results depend on the processing

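With 3 arrays a group and a dim pair, single calls moved with the settings. Of 44 proteasome genes, the number called at 18 weeks was 1, and it was 0 with group as the sole term, on the deposited scaling, with median centring and without a variance trend, 4 without the dim pair, 3 with the filter at the 60th percentile and 5 with array weights. At 25 weeks it was 13, and it was 0 with group as the sole term, 26 on the deposited scaling and 5 without a variance trend; the other settings without a left-out array gave 9 to 19. Between the times it was 0, and it was 1 without the dim pair, 2 on the deposited scaling and 7 with array weights (3 higher, 4 lower). Adding the replicate numbers as a block beside the dim-pair block gave 0, 10 and 0 calls for the 3 comparisons. This fit still held the dim-pair term. Same-numbered arrays correlated in their deviations above 0.1 in 3 of 9 pairs, so the numbers were not taken to pair arrays. Leaving out 1 array at a time gave 0 to 4, 6 to 13 and 0 to 1 calls, and medians of 0.16 to 0.196, 0.0813 to 0.182 and -0.0772 to -0.0244. Where no share of all genes is given here or earlier, these counts show only how calls moved with the settings. They do not show whether proteasome genes differ from other genes. The median at 25 weeks was 1.062 on the deposited scaling, and between the times it was 0.8484 there and -0.311 with group as the sole term. Within the dim pair alone, a value added after seeing the data, the median at 25 weeks was 0.0125. Psmb6 (0.5137), Psmc3 (0.4376), Psmd9 (0.1927) and Psmf1 (0.4198) were above zero on the deposited scaling, where the median of all kept probe sets was 0.9252, and so stayed below that shift. Psmf1 reversed when its probe sets were averaged (0.2941). The cause of these moves was not tested. Psma2, Psma8 and Psmd14 were called at 25 weeks in 21 of 22 alternatives each, missing with group as the sole term, and Psmb3 and Psmb6 in 7 each.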
